A study of Rattus norvegicus with 24 samples.

Results

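Aqp4, Slc1a2 and Slc1a3 are genes whose products sit in the membrane of astrocytes. The 3 genes were taken by symbol from the gene lists of the study, and they are 3 of the 32883 genes in the deposited count table. Aqp4 (ENSRNOG00000016043) was on the study's list for the C versus RS3 comparison, whereas Slc1a2 (ENSRNOG00000005479) and Slc1a3 (ENSRNOG00000016163) were on its list for AS versus RS7. The genes were thus selected on measured values, the differences between those groups in these rats, so the differences of Aqp4 between C and RS3 and of both transporters between AS and RS7 are given below as descriptions without a test. All 3 genes passed the filter on low counts.

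RNA-seq was performed on a block of tissue holding the rostral posterior hypothalamic (rPH) region of adult male Sprague-Dawley rats, collected 24 h after the last session. The C group had no loud noise, the AS group had 1 exposure, and the RS3 and RS7 groups had exposures on 3 and 7 days. Each group had 6 rats, and every rat gave its own library. The study left out 1 rat per group for library quality, and the values below are from the 20 retained rats, 5 per group, unless the excluded rats are named. The retained libraries held between 8087697 and 16947298 counted reads. The block is bulk tissue, in which fewer astrocytes and less RNA per astrocyte cannot be told apart.

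Astrocytes wrap around synapses and blood vessels. Slc1a2 encodes the glutamate transporter EAAT2 and Slc1a3 encodes EAAT1, also called GLAST, and both carry released glutamate out of the extracellular space together with sodium ions. Inside the astrocyte, glutamine synthetase turns much of it into glutamine, which returns to neurons. Aqp4 encodes aquaporin-4, the main water channel of the brain, which is concentrated in the astrocyte endfeet that face capillaries and is anchored there by the dystrophin-associated protein complex. EAAT2 is the dominant glutamate transporter of the adult forebrain, while EAAT1 is best known from the cerebellum and from radial glia.

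In these rPH blocks the group means of the 3 genes did not share a pattern. The choice of Aqp4 on another comparison than the transporters makes this likely. Aqp4 had its highest mean level in the C group, Slc1a2 had its highest in RS7 and its lowest in AS, and Slc1a3 had its highest in AS and its lowest in RS7. Slc1a2 and Slc1a3 therefore stood in opposite order in the AS and RS7 groups, the pair of groups that chose them. In the comparisons that shared no rat with the choice, none of the 3 genes passed the test. For the transporters this was C versus RS3, where edgeR called none of the 16202 genes, so the outcome was that of every gene tested. For Aqp4 it was AS versus RS7, where 1.67% of all genes were called.

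Besides the order of their AS and RS7 means, which chose them, the 2 transporter genes differ in base composition upstream. The stretches of 250 bases before each gene are therefore shown. They come from the RefSeq promoter table for the GRCr8 build, in which both symbols matched, and each is printed 5′ to 3′ on the strand of the gene and ends 1 base before the outermost listed start. The stretch of Slc1a2 is chr3:109459859-109460108 on the plus strand and that of Slc1a3 is chr2:59557809-59558058 on the minus strand. Capitals mark CpG dinucleotides.
Slc1a2: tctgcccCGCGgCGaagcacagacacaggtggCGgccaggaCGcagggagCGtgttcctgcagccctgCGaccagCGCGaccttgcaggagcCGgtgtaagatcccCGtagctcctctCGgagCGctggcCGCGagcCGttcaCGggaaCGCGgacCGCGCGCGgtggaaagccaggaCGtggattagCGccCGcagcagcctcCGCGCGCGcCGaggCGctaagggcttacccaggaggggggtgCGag
Slc1a3: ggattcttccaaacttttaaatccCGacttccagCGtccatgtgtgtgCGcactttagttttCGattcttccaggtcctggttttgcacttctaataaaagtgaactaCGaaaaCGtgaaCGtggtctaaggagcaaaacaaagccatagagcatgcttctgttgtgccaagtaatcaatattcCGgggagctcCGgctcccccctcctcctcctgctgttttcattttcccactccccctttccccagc
The Slc1a2 stretch held 33 CpG dinucleotides and 71.2% G and C, and 96.8% of 27456 genes had as few CpG or fewer. The Slc1a3 stretch held 9 CpG dinucleotides and 48% G and C, close to the median of 6 CpG and 52% over those genes. The GC box GGGCGG, the glucocorticoid receptor half-site AGAACA, the CCAAT box CCAAT and the TATA motif TATAAA were searched on both strands, without a match in either stretch. Over all genes these letters occurred in 32.4%, 17%, 34.3% and 13.1% of the stretches. The letters describe the reference sequence and were not related to the counts.

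Levels are given as CPM, counts scaled to a common library size with TMM factors, as mean ± SD over 5 rats. CPM is not divided by gene length, so levels are compared within a gene and not between genes. Each value rests on 8312 to 16058 counts for Aqp4, 1572 to 4011 for Slc1a2 and 5869 to 12055 for Slc1a3. Counting error alone was therefore at most 1.10%, 2.52% and 1.31% of a value, below the spread between rats in every group.

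Slc1a2 was the gene with the widest separation of groups. Its level was 194, 177, 207, 168 and 196 CPM in the AS rats (188 ± 15.8, SD, n = 5) and 244, 273, 261, 233 and 249 CPM in the RS7 rats (252.05 ± 15.1, SD, n = 5). All 5 RS7 rats lay above all 5 AS rats. The log2 fold change of RS7 over AS was 0.42 ± 0.08 (SE), or 33.7% higher, and Slc1a2 was one of the 270 genes called in this comparison by edgeR (1.67% of 16202). Groups that did not overlap were found for 4.08% of all genes tested in AS versus RS7, and nothing is read from either count, since this comparison put Slc1a2 on the study's list. In the other 5 comparisons the groups overlapped for each of the 3 genes. The share of all genes without overlap there was 1.17% in C versus AS, 2.28% in C versus RS3, 3.59% in C versus RS7, 0.889% in AS versus RS3 and 1.54% in RS3 versus RS7. edgeR called 24 genes in C versus RS7 (0.148%) and none of the 3 was among them. This count was 419 by the DESeq2 Wald test and 103 by limma-voom. It ran from 0 (without C rat 19 or 21, or RS7 rat 3 or 6) to 560 (without RS7 rat 4) when 1 rat was left out.

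The C rats had 183, 209, 266, 220 and 220 CPM of Slc1a2 (219.6 ± 30.0, SD, n = 5) and the RS3 rats 226, 238, 230, 190 and 231 CPM (223 ± 18.9, SD, n = 5). The C group overlapped each of the other groups, and 1 of its rats reached the RS7 range. The order of the means was AS, C, RS3 and RS7, and every pair of neighbours in that order overlapped. The C versus RS3 comparison shares no rat with the choice of Slc1a2, and the log2 fold change there was 0.02 ± 0.08 (SE), with a 95% interval from -0.14 to 0.18 and an adjusted p of 0.916 in edgeR's quasi-likelihood test. No gene of the 16202 tested was called by edgeR in this comparison. A difference of about the size seen between AS and RS7, which chose the gene, lay outside that interval. The interval bears on 3 exposures against none, and nothing is read from it about AS versus RS7. The sign of the small difference between C and RS3 turned without C rat 19 (-0.04) or without RS3 rat 9.

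The comparisons of Slc1a2 that share rats with AS versus RS7 are descriptions. The log2 difference from C was -0.22 ± 0.08 (SE) in AS and 0.20 ± 0.08 in RS7. RS3 stood 0.24 ± 0.08 above AS and 0.18 ± 0.08 below RS7 on the log2 scale. The differences from C depended on single C rats: they were -0.14 in AS and 0.28 in RS7 without C rat 22, and -0.28 and 0.14 without C rat 19. With a covariate of dorsal thalamus markers, described further on, RS7 differed from C by 0.0040 and from RS3 by 0.06, and RS3 from AS by 0.13.

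Slc1a3 varied least. Its level was 745, 787, 749, 738 and 826 CPM in the AS rats (769 ± 37.1, SD, n = 5) and 754, 693, 720, 659 and 686 CPM in the RS7 rats (702 ± 36.2, SD, n = 5). Of the RS7 rats, 4 lay below the lowest AS rat, while the fifth lay inside the AS range. The log2 fold change of RS7 over AS was -0.13 ± 0.04 (SE), and Slc1a3 was not among the 270 called genes.

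The C rats had 767, 781, 728, 738 and 750 CPM of Slc1a3 (753 ± 21.4, SD, n = 5) and the RS3 rats 760, 716, 715, 741 and 730 CPM (732 ± 19.1, SD, n = 5). The means ran from AS through C and RS3 down to RS7, and every pair of groups overlapped. In C versus RS3, which shares no rat with the choice of Slc1a3, the log2 fold change was -0.04 ± 0.04 (SE), with a 95% interval from -0.13 to 0.05 and an edgeR adjusted p of 0.679. No gene of the 16202 tested was called by edgeR in C versus RS3. The difference from C was 0.03 ± 0.04 in AS and -0.10 ± 0.04 in RS7, as descriptions on the log2 scale. The latter was -0.04 with the thalamic covariate.

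Aqp4 was highest in the C rats, at 995, 1305, 1127, 1043 and 918 CPM (1077 ± 148, SD, n = 5). The RS3 rats had 898, 836, 848, 964 and 832 CPM (876 ± 55.9, SD, n = 5), and 4 of them lay below the lowest C rat. The log2 fold change of RS3 over C was -0.30 ± 0.07 (SE), the comparison that chose Aqp4. Neither Aqp4 nor any other of the 16202 genes was called there by edgeR (0%), although 2639 genes had an unadjusted p under 0.05, and limma-voom called 0 genes and the DESeq2 Wald test 38.

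The AS rats had 813, 950, 933, 960 and 923 CPM of Aqp4 (915 ± 59.2, SD, n = 5) and the RS7 rats 913, 918, 1052, 859 and 974 CPM (943 ± 73.4, SD, n = 5). These groups overlapped widely. AS versus RS7 shares no rat with the choice of Aqp4, and the log2 fold change was 0.04 ± 0.07 (SE), with a 95% interval from -0.11 to 0.20 and an edgeR adjusted p of 0.82. As descriptions, AS differed from C by -0.23 ± 0.07 and RS7 from C by -0.19 ± 0.07 on the log2 scale. The first was -0.04 with all 24 rats and -0.10 with the share of the 10 most abundant genes as a covariate, and the second was -0.04 with the thalamic covariate and -0.12 without C rat 21. The means of the 3 noise groups lay between 876 and 943 CPM, and each of these groups overlapped the others and the C group.

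**Figure D1:**
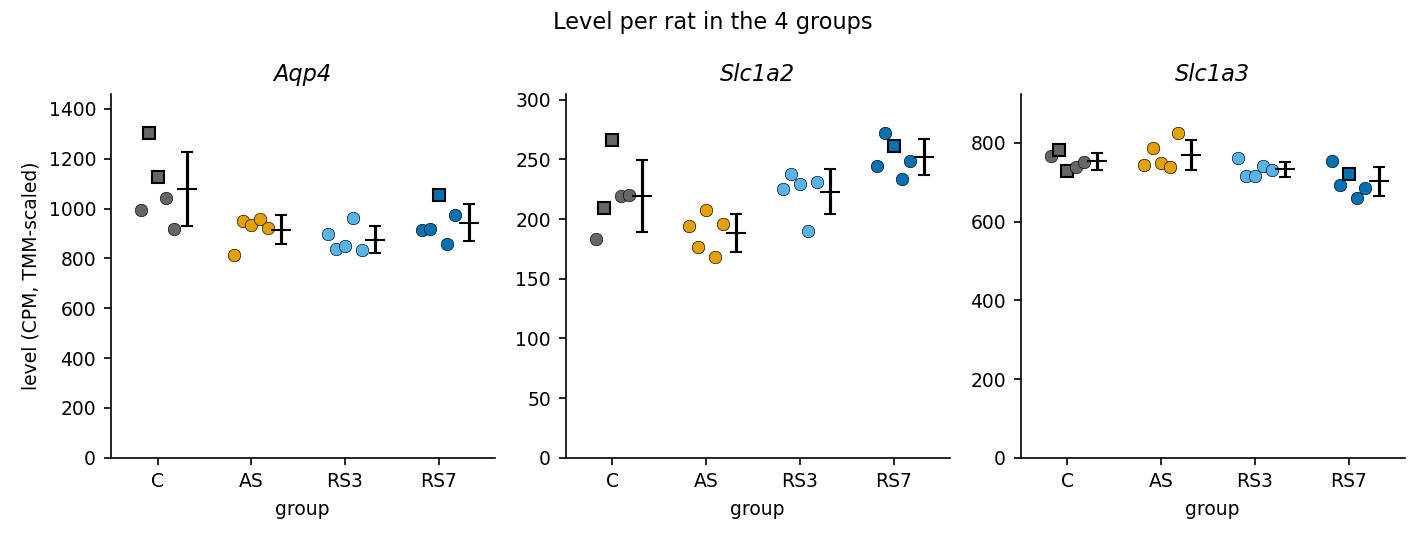
Level of Aqp4, Slc1a2 and Slc1a3 in CPM (vertical axis, from 0) in each retained rat of the C, AS, RS3 and RS7 groups (horizontal axis); circles and squares are rats, black bars are the mean ± SD of 5 rats, and squares mark the 3 libraries with the largest share of counts in their 10 most abundant genes. Slc1a2 lies between 168 and 207 CPM in AS and between 233 and 273 CPM in RS7, and squares make up the 3 highest Aqp4 values.

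**Figure D2:**
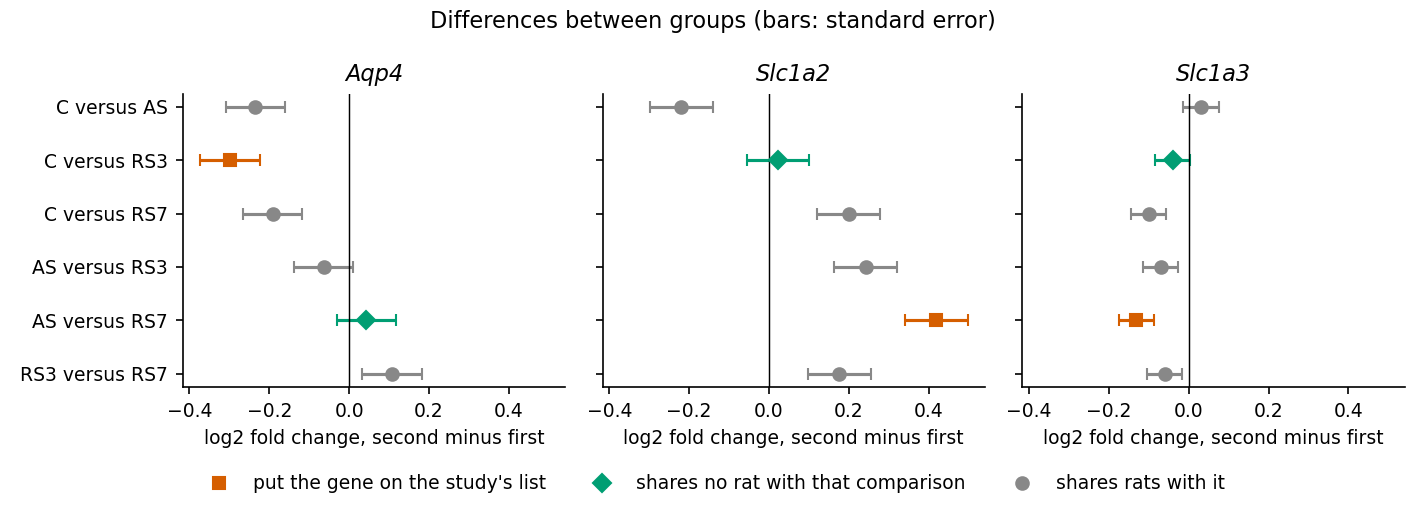
Log2 fold change of each gene (horizontal axis, second group minus first) in the 6 group comparisons (vertical axis), with bars for the standard error from the edgeR fit. Orange squares are the comparisons that put a gene on the study's list, green diamonds those that share no rat with it, which lie at 0.04 for Aqp4, 0.02 for Slc1a2 and -0.04 for Slc1a3, and grey circles the rest.

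The high Aqp4 level of the C group rested in part on 2 libraries. In C rats 21 and 22 and RS7 rat 4, between 18.8% and 20.3% of the counts fell on the 10 most abundant genes of the library, against 12.4% to 14.9% in the other 17 retained libraries. The same 3 libraries had the 3 highest Aqp4 levels, at 1305, 1127 and 1052 CPM. Without them the C mean was 985 ± 62.7 CPM (SD, n = 3) and the log2 fold change of RS3 over C was -0.17 in place of -0.30. With the share of the 10 most abundant genes as a covariate the fold change was -0.16. The part of that share in the Aqp4 difference was not tested. Without the same libraries the Slc1a2 difference between AS and RS7 was 0.41 and that of Slc1a3 -0.14, close to the values over all 20 rats.

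A ratio of the counts of 2 genes in 1 library does not depend on library size or scaling. The ratio of Slc1a2 to Slc1a3 counts was 0.293 ± 0.0470 in C, 0.245 ± 0.0225 in AS, 0.305 ± 0.0299 in RS3 and 0.359 ± 0.0247 in RS7 (SD, n = 5 each). The AS rats ranged from 0.225 to 0.277 and the RS7 rats from 0.324 to 0.393, so these groups did not overlap, as the choice of both genes on this comparison makes likely. The mean log2 ratio was 0.55 higher in RS7 than in AS, and every other pair of groups overlapped. In C versus RS3 the difference of the mean log2 ratio was 0.07, and a two-sided exact permutation test over all splits of these rats gave p = 0.603, where 0.00794 is the smallest the design allows.

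The 4 excluded rats were not used by the choice of genes. Their ratio of Slc1a2 to Slc1a3 counts was 0.306 in C, 0.269 in AS, 0.363 in RS3 and 0.349 in RS7. The excluded AS rat lay inside the range of the retained AS rats and the excluded RS7 rat inside that of the retained RS7 rats, while the excluded RS3 rat lay above the retained RS3 range. With 1 rat per group these values carry no test, and these libraries were left out by the study for their quality. On a scale set over all 24 rats, Aqp4 was at 1772 CPM in the excluded AS rat, against 770 to 903 CPM in the retained AS rats, and lay above the retained range in the excluded RS3 and RS7 rats too. On that scale Slc1a3 was at 674 CPM in the excluded AS rat, below the retained AS range of 695 to 777 CPM, and at 744 CPM in the excluded RS7 rat, above the retained RS7 range of 623 to 714 CPM. The order of Slc1a3 in these 2 excluded rats was thus opposite to that of the retained group means. Slc1a2 was at 181 CPM in the excluded AS rat, inside the retained range, and at 259.7 CPM in the excluded RS7 rat, above it.

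**Figure D3:**
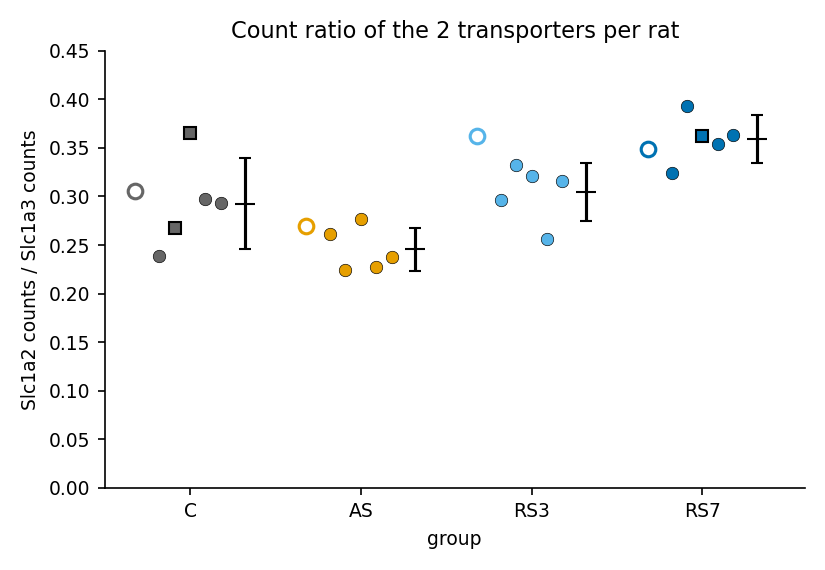
Ratio of Slc1a2 to Slc1a3 counts (vertical axis, from 0) in each rat of the 4 groups (horizontal axis). Filled symbols are retained rats, squares the 3 libraries with a large share of counts in their 10 most abundant genes, open circles the excluded rats, and bars the mean ± SD of the 5 retained rats; the ratio lies between 0.225 and 0.277 in AS and between 0.324 and 0.393 in RS7.

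The ratios to Aqp4 followed from the same levels. The ratio of Slc1a2 to Aqp4 counts was 0.206 ± 0.0340 in C, 0.207 ± 0.0262 in AS, 0.256 ± 0.0353 in RS3 and 0.268 ± 0.0187 in RS7 (SD, n = 5 each). The retained RS7 rats, at 0.248 to 0.297, did not overlap the retained C rats, at 0.160 to 0.239, or AS rats, at 0.175 to 0.239. Of single genes, 3.59% had ranges without overlap in C versus RS7 and 4.08% in AS versus RS7. The excluded rats had ratios of 0.183 in C, 0.102 in AS, 0.228 in RS3 and 0.219 in RS7. The excluded RS7 rat thus lay inside the retained C and AS ranges. The ratio of Slc1a3 to Aqp4 counts was lowest in C (0.708 ± 0.0891) and highest in AS (0.842 ± 0.0618), with overlap between all groups. As both ratios hold the values that chose the genes, they are descriptions.

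The spread between rats of 1 group entered the choice, since the study's test sets a difference against it, so it is given as a description. In the edgeR fit the 4 groups also shared 1 estimate of the spread. The comparisons that share no rat with the choice are thus separate from it in their means only. The pooled SD of log2 CPM within groups was 0.129 for Aqp4, 0.138 for Slc1a2 and 0.0575 for Slc1a3. Among the 1939 genes with a mean of at least 100 CPM the median SD was 0.0880. An SD as low or lower was found in 79.0% of these genes for Aqp4, in 83.0% for Slc1a2 and in 13.6% for Slc1a3. A gene with as small a difference as Slc1a3 could be listed only with a small spread.

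How the deviations of 2 genes pair up from rat to rat was not used by the choice. Pooled over the groups, the 3 genes did not vary together at a level the tests could detect. After subtraction of the group means, Pearson's r over the 20 rats was -0.163 for Slc1a2 with Slc1a3 (adjusted permutation p = 0.709), -0.05 for Slc1a2 with Aqp4 (adjusted permutation p = 0.882) and 0.317 for Slc1a3 with Aqp4 (adjusted permutation p = 0.516), adjusted over the 3 pairs. The unadjusted permutation p-values were 0.473, 0.882 and 0.172. Spearman's rho was -0.126, -0.04 and 0.226, with an adjusted permutation p of 0.886 for each and unadjusted values of 0.619, 0.886 and 0.363. Without the 2 rats farthest from the median of the gene named first, r was 0.00093, -0.312 and 0.503. In single groups of 5 rats, as descriptions, r of Slc1a2 with Slc1a3 ran from -0.759 (C) to 0.230 (RS7). That of Slc1a2 with Aqp4 ran from -0.932 (RS3) to 0.520 (RS7), and that of Slc1a3 with Aqp4 from 0.222 (AS) to 0.630 (RS3). Without subtraction of group means, r of Slc1a2 with Slc1a3 was -0.581 (adjusted permutation p = 0.0199), a value that holds the opposite group means through which both genes were chosen.

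Markers of the dorsal thalamus, which lies above the hypothalamus, had group medians in the same order as Slc1a2, and their relation with it within groups did not pass after adjustment. Of 9 markers listed, Tcf7l2, Lef1, Rora, Rorb and Ntng1 had identifiers, all from the study's own lists of differences in these rats. In AS versus RS7 edgeR called Rora and Rorb higher, 2 of the 6 rows of these genes, where 1.19% of all genes were called higher. The summed level of the 6 rows was 534 to 806 CPM in the AS rats and 845 to 1062 CPM in the RS7 rats. These sums did not overlap, where 4.08% of single genes had ranges without overlap. The median was 718 CPM in C, 651 in AS, 785 in RS3 and 885 in RS7. Correlations with this and the other marker lists used the mean log2 CPM of their rows, not the sum. Within groups, r of Slc1a2 with the mean of the thalamic markers was 0.687 (permutation p = 0.00434), and 0.604 without the 2 rats farthest out. Spearman's rho was 0.621 (permutation p = 0.00995, adjusted 0.117). This was 1 of 12 relations examined between the 3 genes and 4 lists, and the adjusted permutation p of r was 0.0521, so it did not pass at 0.05.

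With the thalamic markers as a covariate, the Slc1a2 difference between AS and RS7 was 0.19 in place of 0.42 on the log2 scale, that of Slc1a3 was -0.06 in place of -0.13, and that of Aqp4 was 0.22 in place of 0.04 (edgeR adjusted p = 0.791). The number of genes called in AS versus RS7 was 0 in place of 270 with this covariate, with 977 genes at an unadjusted p under 0.05. The covariate score ran from -9.89 to 1.28 in the AS rats and from 3.13 to 9.77 in the RS7 rats, without overlap. Score and group thus largely coincide in this comparison, and the fit cannot tell their parts apart. The part of the amount of thalamic RNA in these differences was not tested.

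Slc1a3 and Aqp4 had the opposite sign to Slc1a2 with the thalamic markers. Within groups r was -0.505 for Slc1a3 (permutation p = 0.0258, adjusted 0.0774) and -0.502 for Aqp4 (permutation p = 0.0327, adjusted 0.0786), and the value for Aqp4 was -0.175 without the 2 rats farthest out. The Spearman values were -0.502 (permutation p = 0.039, adjusted 0.117) and -0.414 (permutation p = 0.0949, adjusted 0.19). Slc1a3 had r of 0.554 with the mean log2 level of the GABA neuron genes Gad1, Gad2 and Slc32a1 (permutation p = 0.0145, adjusted 0.0774). Its rho was 0.528 (permutation p = 0.03, adjusted 0.117), and r was 0.573 without the 2 farthest rats. None of the 12 relations passed after adjustment.

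**Figure D4:**
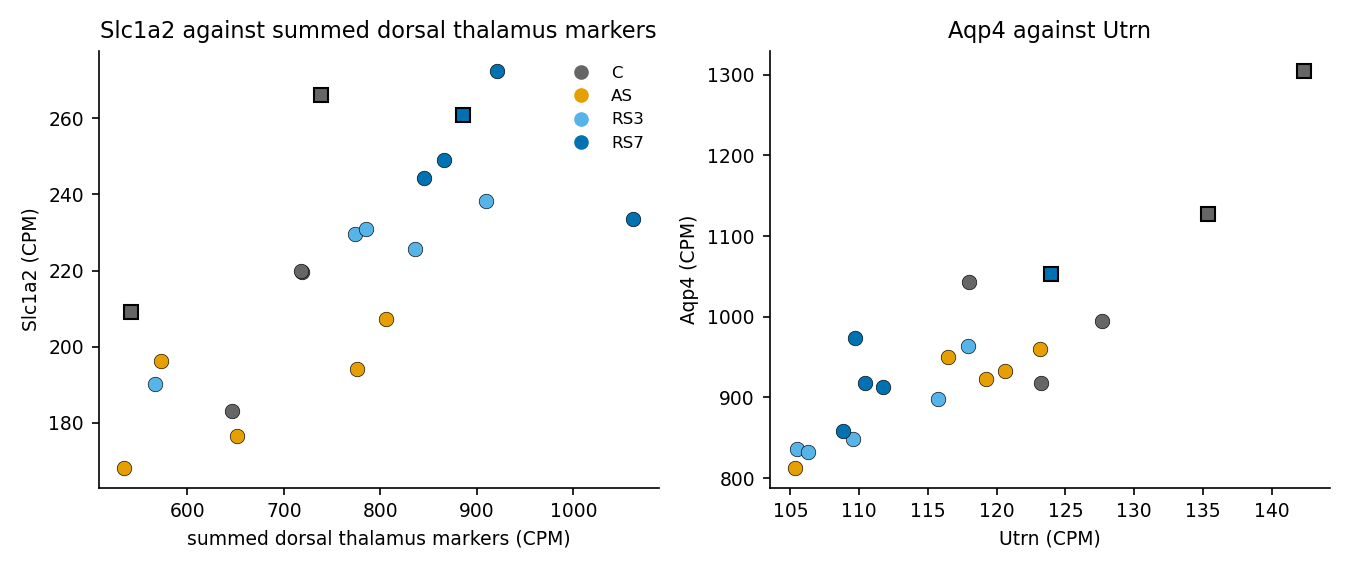
Left, Slc1a2 level (CPM) against the summed level of the dorsal thalamus markers (CPM); right, Aqp4 level (CPM) against Utrn level (CPM); each symbol is 1 retained rat, coloured by group, squares mark the 3 libraries with a large share of counts in their 10 most abundant genes, and the axes do not start at 0. On the left the RS7 rats lie at 845 to 1062 CPM of thalamic markers and the AS rats at 534 to 806 CPM; on the right the group-centred r is 0.841.

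The gene most like Aqp4 among those compared was Utrn, which encodes utrophin, a relative of dystrophin found in vascular endothelium and astrocyte endfeet. Likeness was Pearson's r of log2 CPM over the 20 rats after subtraction of group means, among 727 genes whose symbol was unique and also present in the RefSeq gene table, all from the study's lists, and is given without a test. It was 0.841 for Utrn, followed by Zfp958 (0.830), Cd38 (0.821), an enzyme that consumes NAD, Xkr6 (0.796) and Lgals3bp (0.781), a secreted glycoprotein that binds galectin. A further 88 genes outside that set had a higher r than the fifth of these. The highest r of any tested gene with Aqp4 was 0.912, above that of Utrn. Without the 3 libraries named above r was 0.680 for Utrn and 0.530 for Xkr6, while Lgals3bp stayed at 0.773.

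Slc1a2 was most like Hecw2 (0.824), a ubiquitin ligase, Rab3c (0.819), a small GTPase of synaptic vesicles, Usf3 (0.818), Rasal2 (0.815), which promotes GTP hydrolysis by Ras, and Bdp1 (0.813), a subunit of the RNA polymerase III initiation factor. Slc1a3 was most like Celf6 (0.812), an RNA-binding protein, Neurl1 (0.781), a ubiquitin ligase, Scml4 (0.750), Baiap3 (0.731), which acts in exocytosis, and Pla2g2c (0.726), a phospholipase. Both rankings are among the same 727 genes. Outside that set, 1 gene had a higher r with Slc1a2 than Bdp1, and 18 genes had a higher r with Slc1a3 than Pla2g2c. The highest r of any tested gene with Slc1a3 was 0.815. The lists for the 3 genes shared no gene. Among the 16201 other tested genes, Aqp4 ranked at 8780 and Slc1a3 at 10748 in likeness to Slc1a2. In likeness to Slc1a3, Aqp4 ranked at 2613 and Slc1a2 at 11503. In likeness to Aqp4, Slc1a3 ranked at 4129 and Slc1a2 at 8906.

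The other genes of glutamate handling could be examined only where the study's lists gave an identifier, and those lists were made on these rats, so the counts are not independent evidence of a direction. Of 22 genes of glutamate and GABA uptake and cycling, 4 had one. In AS versus RS7 edgeR called 1 of the 4, Gad1, which makes GABA from glutamate, at a log2 fold change of -0.71 ± 0.13 (SE, adjusted p = 0.0128), where 0.481% of all genes were called lower. Gad2 had -0.55 ± 0.14 (edgeR adjusted p = 0.0561) and Slc32a1, which loads GABA into vesicles, -0.52 ± 0.13 (edgeR adjusted p = 0.0541). Slc17a6, the vesicular glutamate transporter of thalamic and hypothalamic neurons, had 0.30 ± 0.10 (edgeR adjusted p = 0.119).

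Among the glutamate receptor genes with an identifier, the NMDA receptor subunits Grin2a and Grin2b were called higher in RS7 than in AS, where 1.19% of all genes were. Their log2 fold changes were 1.01 ± 0.15 (SE, edgeR adjusted p = 0.00405) and 0.48 ± 0.11 (SE, edgeR adjusted p = 0.031). Grm4, a metabotropic receptor, had 0.35 ± 0.10 (SE, edgeR adjusted p = 0.0907).

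Of 25 genes of the astrocyte endfoot, the dystrophin complex and the basement membrane, 5 had an identifier. Lamb1, a laminin chain, was called higher in RS7 than in AS, at 0.33 ± 0.09 (SE, edgeR adjusted p = 0.0459), where 1.19% of all genes were called higher. Agrn, the basement membrane proteoglycan agrin, had -0.23 ± 0.07 (edgeR adjusted p = 0.0682), and Utrn -0.05 ± 0.06 (edgeR adjusted p = 0.71). The collagen chains Col4a1 and Col4a2 had -0.14 ± 0.07 and -0.28 ± 0.08 (edgeR adjusted p = 0.317 and 0.0784). Within groups, the mean log2 level of the 5 genes had r of 0.526 with Aqp4 (permutation p = 0.0219, adjusted 0.0774), which did not pass after adjustment. Its rho was 0.528 (permutation p = 0.0231, adjusted 0.117), and r was 0.476 without the 2 rats farthest out (permutation p = 0.131). Utrn, ranked above as most like Aqp4 among 727 genes over all 20 rats, is among the 5. In none of the other 5 comparisons was a gene named here from these lists called.

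The astrocyte origin of the 3 genes could not be checked here. Of 22 astrocyte markers listed, the 3 with identifiers were Aqp4, Slc1a2 and Slc1a3 themselves. No marker of oligodendrocytes, their precursors or microglia had an identifier. The ependymal genes Rsph10b and Daw1 summed to 7.19 to 15.5 CPM in RS7 and 11.1 to 18.9 CPM in AS. Daw1 was called lower in RS7 than in AS at a log2 fold change of -0.86 ± 0.19 (SE, edgeR adjusted p = 0.0254), where 0.481% of all genes were called lower. Rsph10b had -0.42 ± 0.21 (edgeR adjusted p = 0.32). The endothelial gene Plvap, the only 1 of 5 endothelial markers with an identifier, moved in the same direction as Slc1a2. It lay between 6.39 and 8.77 CPM in the AS rats and between 9.34 and 13.1 CPM in the RS7 rats. These ranges did not overlap, as for 4.08% of all genes tested in AS versus RS7. Plvap was called higher at a log2 fold change of 0.53 ± 0.13 (SE, edgeR adjusted p = 0.0396), where 1.19% of all genes were. These genes were chosen by the study on the same rats, and their part in the differences of the 3 genes was not tested. Avp, Oxt, Trh and Sim1, which mark neurosecretory neurons of the paraventricular nucleus, summed to 37.8 to 325 CPM in AS and 7.66 to 35.9 CPM in RS7. These sums did not overlap either, where 4.08% of single genes had ranges without overlap. Within groups, the mean log2 level of these neurosecretory genes had r of -0.234 with Aqp4, 0.0034 with Slc1a2 and 0.384 with Slc1a3 (permutation p = 0.389, 0.99 and 0.0943, adjusted 0.608, 0.99 and 0.189).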

How the data were processed

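RNA of 24 rats was sequenced as paired reads of mRNA libraries. The authors trimmed the reads with Trimmomatic 0.36, mapped them with HISAT2 2.0.5 to the rn6 genome and counted them on Ensembl genes with featureCounts, and deposited 1 table of raw counts per gene and rat, without normalization. How strand and multiply mapped reads were handled is not given in the sources used here, so reads shared with overlapping genes cannot be told apart. Symbols came from the study's supplementary gene table, which names 779 genes. That table also identified the 20 retained rats, as the 1 of 1296 sets whose recomputed mean normalized counts matched all 808 listed genes (relative tolerance 1e-06, 1 gene in the next best set). Values of the authors' own comparisons in it were not used.

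Counts were tested in R 4.3.3 with edgeR 4.0.16 (TMM, filterByExpr with a minimum count of 10, robust quasi-likelihood test, 4 groups in 1 fit, Benjamini-Hochberg adjustment within each comparison, threshold 0.05), which left 16202 genes, after a test on simulated data. Fold changes are on the log2 scale, with the less exposed group as reference. Ratios of counts were compared by exact permutation, and correlations by permutation within groups (100000 resamples). Alternatives were DESeq2 1.42.0 and its size factors, limma-voom 3.58.1 with quality weights, no filter, all 24 rats, only the groups compared, libraries thinned to 8087697 counts, covariates of thalamic markers and of the share of the 10 most abundant genes, and each rat left out in turn. Leaving out 3 libraries together was added after seeing the data, as were the 12 relations with marker lists.

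The members and lists were chosen with earlier results of these data known. Genes named are the 3 members, the 5 genes most like each, and members of the lists with an identifier, of which 1 is not reported here. No positions in rn6 are given, as no annotation of that build was used here.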

Additional observations from a re-analysis of the deposited data

Results flagged for a closer look

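Of 24 sets of 5 rats (the 3 levels and the 3 count ratios in each group), 2 held a rat far from the others by Dixon's test at the 95% level, which chance gives for about 1 set in 20. AS rat 13 had 813 CPM of Aqp4, against 923 to 960 CPM in the other AS rats. RS3 rat 11 had 190 CPM of Slc1a2, against 226 to 238 CPM in the other RS3 rats, and it also had the lowest summed thalamic markers of its group (567 CPM).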

How the results depend on the processing

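No paired analysis was possible because each rat has a number of its own that no other group shares. The log2 fold changes of the 3 genes in the comparisons that chose them kept their sign under every alternative run. Aqp4 in C versus RS3 moved to -0.16 with the covariate of the 10 most abundant genes and to -0.17 without C rats 21 and 22 and RS7 rat 4, and lay between -0.35 and -0.22 over the fits that left out 1 rat. Slc1a2 in AS versus RS7 moved to 0.19 and Slc1a3 to -0.055 with the thalamic covariate, and lay between 0.38 and 0.45 and between -0.16 and -0.10 when 1 rat was left out. The tested differences passed under none of the alternatives, with edgeR, limma or DESeq2 adjusted p from 0.728 to 0.991 for Aqp4, 0.635 to 0.996 for Slc1a2 and 0.577 to 0.985 for Slc1a3. Their sign turned for Aqp4 in AS versus RS7 with all 24 rats (-0.11) and with the covariate of the 10 most abundant genes (-0.014), and for Slc1a2 in C versus RS3 with the thalamic covariate (-0.056); with each rat left out these lay between 0.0035 and 0.076 and between -0.037 and 0.097. The sign of the ratio in C versus RS3 turned without C rat 19 (range -0.0023 to 0.15). The cause was not tested.

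The number of genes called in AS versus RS7 was 568 by the DESeq2 Wald test, 772 by limma-voom, 433 with only the groups compared, 441 with the covariate of the 10 most abundant genes, 129 with all 24 rats, 0 with the thalamic covariate, and 46 (without AS rat 17) to 403 with each rat left out. It was 52, 92, 81, 97 and 83 without AS rats 14 and 16 and RS7 rats 3, 5 and 6. In C versus RS3 it was 38 by DESeq2 and 0 to 17 (without C rat 23) with each rat left out. The correlation of Slc1a2 with Slc1a3 was -0.58 without subtraction of group means and 0.00093 without the 2 farthest rats. That of Slc1a2 with Aqp4 was 0.024 without subtraction, 0.20 with all 24 rats, and between -0.20 and 0.10 with each rat left out, positive without C rat 21 (0.03) and RS3 rat 11. That of Slc1a3 with Aqp4 was -0.023 with all 24 rats. Of 360 values of the other 12 fold changes under alternatives, 7 moved by more than the SD within groups. The counting error of the 3 genes was below the spread between rats. Other effects that may go with depth or library quality were not tested.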
